A study of Mus musculus with 40 samples.

Results

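Day 12 of a time course in CtbpDKO mouse embryonic stem cells was compared with day 9, the interval in which the RNA of Ctbp2 fell back from a raised level. The comparison rests on 4 RNA sequencing libraries, 2 at day 9 and 2 at day 12, chosen by their labelled day from the 10 libraries of the time course and the 40 samples of the series. All are E14tg2a cells, a feeder-independent mouse embryonic stem cell line, with the genotype label CtbpDKO and the word Dox in the title, grown in GMEM with fetal bovine serum and LIF. The other time course groups were 2 libraries each at days 0, 3 and 18 under the same labels. The descriptions and count columns of the time course libraries carry the name iCt2, which the labels do not explain. Beyond that name, the labels do not say what the Dox treatment switched or on which days it was given. Groups are therefore named by their day. Another table of the series, with 2 CtbpDKO and 2 WT libraries of E14tg2a, served as a comparison that shares no library with the time course. No library held at the day 9 state until day 12 was analysed here. The fall of Ctbp2 RNA, any change in Dox treatment and the further days in culture therefore cannot be told apart.

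CtBP proteins are corepressors of transcription that do not bind DNA themselves. They are brought to genes by DNA-binding factors such as Zeb1 and Zeb2, and they bring histone demethylases, deacetylases and methyltransferases with them. Ctbp1 and Ctbp2 are the mouse genes of the family. In embryonic stem cells a small, changing fraction of cells enters a 2-cell-like state, in which genes of the 2-cell embryo such as the Zscan4 family are transcribed downstream of the factor Dux, and the series asks how CtBP bears on that state.

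Each library held between 16674526 and 30169626 counts, with 24910232 and 23204400 at day 9 and 16674526 and 27172319 at day 12. Levels are given as CPM, counts relative to the scaled library size, replicate 1 first and replicate 2 second. The embryonic stem cell label was checked on Pou5f1, the pluripotency factor Oct4, which stood at 598 and 599 CPM at day 9 and at 702 and 669 CPM at day 12. Nanog, another core factor, stood at 181 and 207 CPM and then at 208 and 199 CPM. Of the markers of other cells, 8 neural markers summed to 91.1 and 102 CPM at day 9 and to 91.4 and 90.5 CPM at day 12, of which the tubulin gene Tubb3 gave 61.9 and 68.3 CPM and then 62.8 and 62.5 CPM. The neurogenic factor Neurog2 had 0 counts in all 4 libraries. The 8 fibroblast markers summed to 9.95 and 11.7 CPM at day 9 and to 18.8 and 18.2 CPM at day 12, and 8 mesoderm markers to at most 7.79 CPM in these 4 libraries. A gene counts as called when its Benjamini-Hochberg adjusted p from the quasi-likelihood test of edgeR is under 0.05. Nothing in the labels says that the 2 libraries of a day came from separate cultures. The p-values therefore rest only on the spread between libraries of the same day, which may be technical. That spread was estimated over all 10 libraries of the time course, with information shared among genes.

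Ctbp2 RNA fell 6.43-fold from day 9 to day 12. Its level was 310 and 296 CPM at day 9 and 49.4 and 44.7 CPM at day 12, with a log2 fold change of -2.69 (SE 0.11, adjusted p = 1.13e-08). Both day 12 libraries lay far below both day 9 libraries. Before that, Ctbp2 had stood at 58.9 and 59.3 CPM at day 0 and at 544 and 573 CPM at day 3, so it was already lower at day 9 than at day 3. Both day 12 libraries lay below both of day 0, a difference that was not called (log2 fold change -0.33, SE 0.11, adjusted p = 0.26). At day 18 it was 52.4 and 54.7 CPM. Reads over Ctbp2 therefore stayed present at days 0, 12 and 18, and whether they come from transcripts that can be translated was not measured. In the comparison of CtbpDKO with WT cells Ctbp2 was also lower but not absent (log2 fold change -2.29, adjusted p = 7.65e-10). Ctbp1 had 0 counts in all libraries of days 3, 9 and 12 and at most 4 in any of days 0 and 18, so neither family member was high at day 12.

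**Figure D1:**
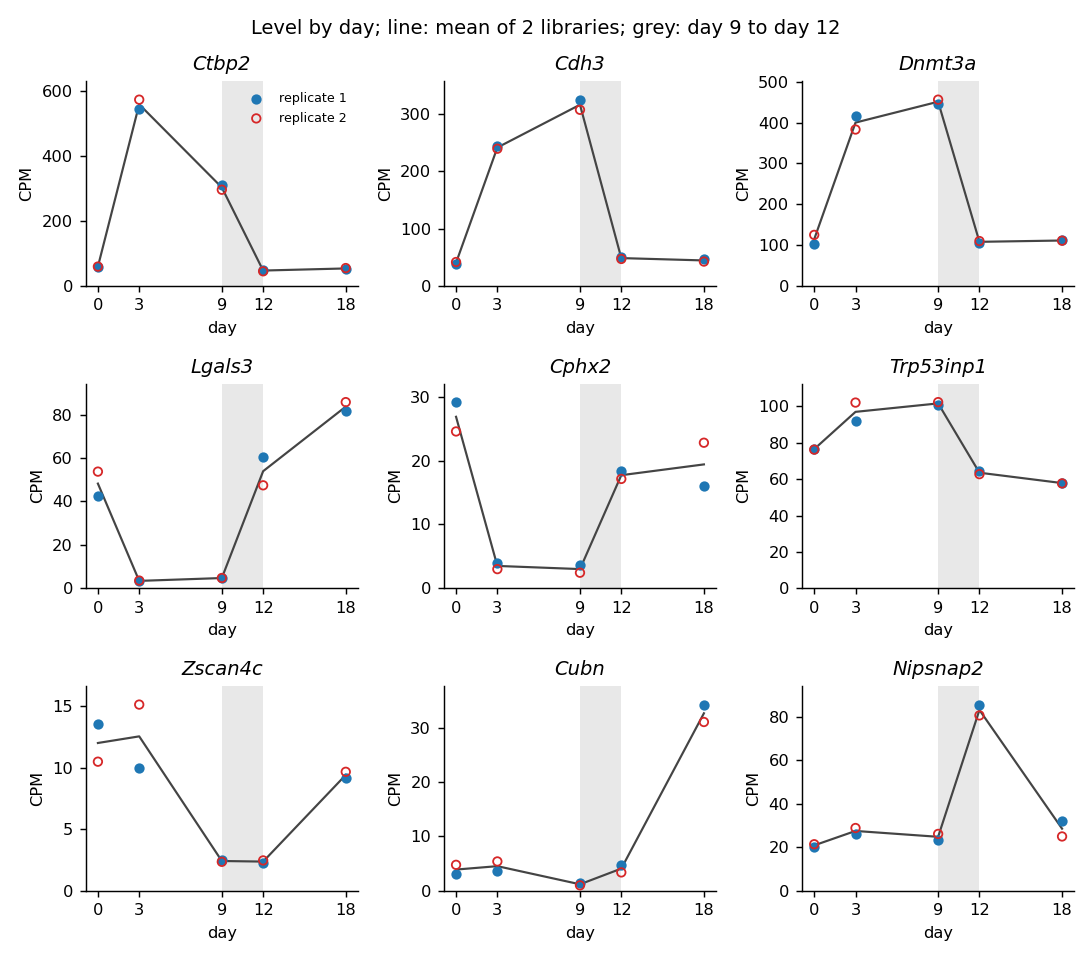
Level in CPM of 9 genes against the day of the time course (0, 3, 9, 12 and 18), with 1 point per library and a line through the mean of the 2 libraries; the interval from day 9 to day 12 is shaded. Ctbp2, Cdh3, Dnmt3a and Trp53inp1 dropped in the shaded interval, Lgals3, Cphx2, Cubn and Nipsnap2 rose in it, and Zscan4c was at the same low level on both sides of it.

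From day 9 to day 12, 385 genes rose and 406 fell among 20612 tested. These are 1.87% and 1.97% of the genes tested, or 3.84% in all. The change was at least 2-fold for 153 of those that rose (0.742% of genes tested) and 120 of those that fell (0.582%). Leaving out any 1 of the 4 libraries reduced the count of 791 to between 210 (without day 12 replicate 2) and 303 (without day 9 replicate 1). The other leave-outs gave 278 without day 9 replicate 2 and 235 without day 12 replicate 1. Of the 791 calls, between 199 and 271 remained under those leave-outs and 0 changed direction. Over all genes tested, both day 12 libraries lay above both day 9 libraries for 24.3% and below both for 25.2%. Genes named for the size of their change or for their p-value had to show no such overlap, so for them it is a condition of the choice.

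**Figure D2:**
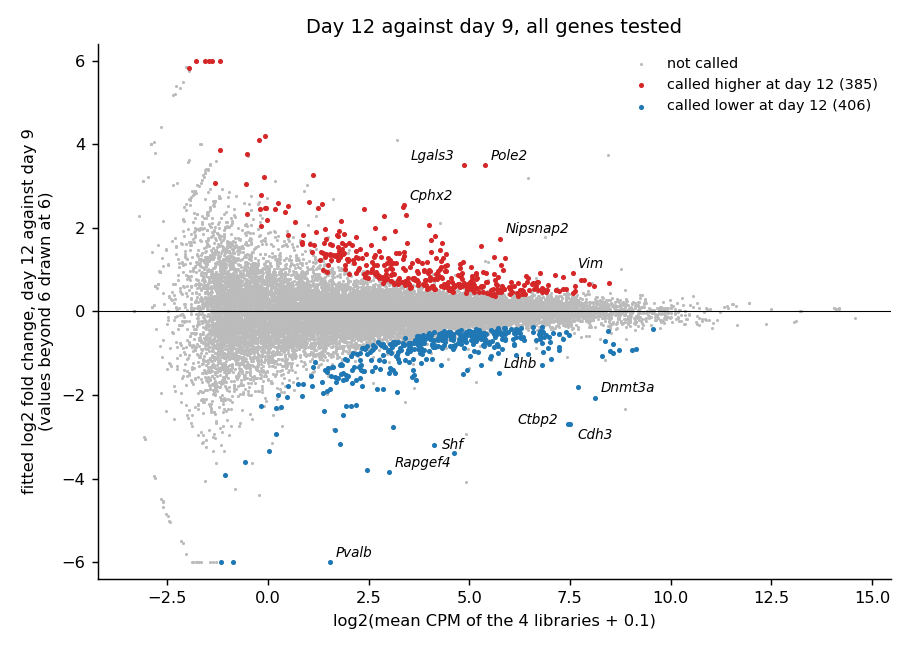
Fitted log2 fold change from day 9 to day 12 (vertical) against log2 of the mean CPM of the 4 libraries plus 0.1 (horizontal) for all genes tested; red points are the 385 genes called higher, blue points the 406 called lower, grey points the rest. Ctbp2, Cdh3 and Dnmt3a stand apart as abundant genes with large falls, and Lgals3 as a gene with a large rise.

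Among called genes with a mean of at least 50 counts in the higher group, the largest rises belonged to genes of several unrelated functions, and most had been higher at day 0 than at days 3 and 9. Lgals3, which encodes the sugar-binding lectin galectin-3, stood at 4.72 and 4.76 CPM at day 9 and at 60.4 and 47.4 CPM at day 12. That is an 11.4-fold rise (log2 fold change 3.50, SE 0.16, adjusted p = 2.44e-08). It had been 42.7 and 53.8 CPM at day 0 and 3.28 and 3.57 CPM at day 3, and it reached 81.6 and 85.8 CPM at day 18. Cphx1, Cphx2 and Cphx3 are near-identical homeobox genes transcribed in oocytes and early embryos, and reads may be split among them. Cphx2 rose from 3.59 and 2.44 CPM to 18.3 and 17.1 CPM (log2 fold change 2.54, SE 0.22, adjusted p = 3.02e-05), and the fitted values of Cphx3 and Cphx1 were 2.50 and 2.46. These 3 copies count as 1 observation. Pou4f2, a neuronal POU factor, rose from 0.549 and 0.218 CPM to 3.93 and 3.67 CPM (log2 fold change 3.26, SE 0.41, adjusted p = 0.000634), and without day 9 replicate 1 the value was 4.08. Smaller rises on this scale were those of the vesicle calcium sensor Syt2 (2.62), the epithelial tripartite motif gene Trim29 (2.56) and Soga3 (2.30). Vax2os, an RNA antisense to the eye homeobox gene Vax2, had a value of 2.48 and lost its call without day 9 replicate 1 (3.12), without day 9 replicate 2 (2.07) and without day 12 replicate 1 (2.12). Pole2, a subunit of DNA polymerase epsilon, also met the rule, but its rise rested on a single library: it stood at 6.77 and 6.63 CPM at day 9 and at 145 and 9.06 CPM at day 12. Without day 12 replicate 1 its log2 fold change was 0.43 and it was not called. With only the libraries of days 9 and 12 in the fit it was not called either (3.50, adjusted p = 0.088). It lost its call as well without day 9 replicate 1 (3.52) and without day 9 replicate 2 (3.49), and without day 12 replicate 2 the value was 4.41.

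The windows of 250 bases that the table gives before a transcript start of 3 of these genes are shown because Zeb factors, partners of CtBP, are known to bind the letters CACCTG. They are from the RefSeq promoter table of GRCm38.p6, 5′ to 3′ on the strand of the gene, with CACCTG or its reverse complement CAGGTG in capitals. They lie at chr14:47373610-47373859 (plus strand, Lgals3), chr8:78436648-78436897 (minus strand, Pou4f2) and chr14:26082043-26082292 (plus strand, Cphx2). The first 2 end next to the start of the gene, and the Cphx2 window lies inside the gene span that the RefSeq gene table gives.
Lgals3: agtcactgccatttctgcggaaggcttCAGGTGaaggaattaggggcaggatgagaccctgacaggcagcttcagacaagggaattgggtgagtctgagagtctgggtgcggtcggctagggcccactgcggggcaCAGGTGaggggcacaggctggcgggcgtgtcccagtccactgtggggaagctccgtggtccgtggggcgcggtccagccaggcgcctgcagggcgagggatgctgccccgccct
Pou4f2: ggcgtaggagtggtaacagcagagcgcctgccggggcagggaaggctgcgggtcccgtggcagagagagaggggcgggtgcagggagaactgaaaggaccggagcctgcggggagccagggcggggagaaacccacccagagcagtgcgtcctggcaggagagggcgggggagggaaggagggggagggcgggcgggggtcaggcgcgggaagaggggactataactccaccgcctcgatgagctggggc
Cphx2: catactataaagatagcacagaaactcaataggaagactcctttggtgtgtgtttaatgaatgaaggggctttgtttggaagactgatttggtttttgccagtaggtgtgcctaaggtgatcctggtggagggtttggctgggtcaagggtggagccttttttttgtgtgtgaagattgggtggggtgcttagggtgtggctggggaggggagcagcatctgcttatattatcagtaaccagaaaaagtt
The Lgals3 window holds 2 copies of the motif, both as CAGGTG, and the windows of Pou4f2 and Cphx2 hold none. Of the other genes with the largest rises, Pole2, Syt2, Vax2os, Cphx1, Cphx3 and Soga3 also have windows, and none of those holds the motif. The Cphx3 window differed from that of Cphx2 at 0 of 250 positions, and the Cphx1 window at 0 of 246 positions after a shift of 4 bases. Searched on both strands, the motif lay in 17.2% of the 32851 windows of the table. Over genes, at least 1 window held it for 65 of the 268 called higher that have a window, for 66 of 301 called lower and for 2430 of 12310 tested (24.3%, 21.9% and 19.7%). These shares are descriptions of letters in short windows, and nothing was measured here on binding.

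The genes with the smallest p-values among those that rose were Lgals3, Nipsnap2, Crip1, Dpysl3 and Tppp3. Crip1 encodes a small LIM domain protein, and it went from 20.8 and 18.7 CPM to 57.6 and 60.3 CPM (log2 fold change 1.58, adjusted p = 1.82e-05). Dpysl3, a cytoskeletal protein of growing neurites, went from 7.83 and 7.72 CPM to 24.2 and 26.7 CPM (1.71). Tppp3, which promotes tubulin assembly, went from 5.60 and 6.81 CPM to 26.9 and 24.9 CPM (2.06). All 3 had been at higher levels at day 0 than at days 3 and 9. Nipsnap2, a mitochondrial protein gene, had another course. Its level was 20.4 and 21.4 CPM at day 0, 26.2 and 28.9 CPM at day 3 and 23.5 and 26.1 CPM at day 9. It was 85.6 and 80.6 CPM at day 12, a log2 fold change of 1.74 (SE 0.13, adjusted p = 8.5e-06). At day 18 it was 32.1 and 25.0 CPM (log2 fold change against day 12 -1.55, adjusted p = 8.53e-05), so the high level was seen on day 12 alone.

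Among the falls, that of Cdh3, another abundant gene, was about as large as that of Ctbp2. Cdh3, which encodes P-cadherin, a cell adhesion protein, fell from 325 and 307 CPM to 50 and 47 CPM (log2 fold change -2.71, SE 0.11, adjusted p = 1.13e-08). It had been at 38.9 and 41.6 CPM at day 0 and at 244 and 239 CPM at day 3, so its course followed that of Ctbp2 except that it did not decline between days 3 and 9. Pvalb, a calcium-binding protein of muscle and interneurons, had 146 and 136 counts at day 9, 120 and 124 at day 3, and 0 in both libraries of each of days 0, 12 and 18. Taken against 3 counts in each day 12 library, that fall is at least 40.7-fold. Rapgef4, a cAMP-activated exchange factor for Rap proteins, fell from 16 and 14 CPM to 0.912 and 1.13 CPM (log2 fold change -3.85, SE 0.31, adjusted p = 1.82e-05). Nebl, an actin-binding protein of heart muscle, fell from 11.3 and 8.99 CPM to 0.513 and 0.882 CPM (-3.80). The signalling adaptor Shf fell from 30.6 and 32.5 CPM to 3.54 and 3.35 CPM (-3.20, adjusted p = 3.61e-07). Rapgef4, Nebl and Shf were all lower at day 0 than at day 9. The other falls among the 10 largest under the same minimum were Gstt1, a glutathione transferase (-3.17), Cox6a2, a muscle form of a respiratory chain subunit (-2.83), and Mmp9, a matrix protease (-2.77), beside Gal3st3. Ldhb, a lactate dehydrogenase subunit, had one of the smallest p-values with a fall from 79.8 and 76.0 CPM to 27.5 and 28.1 CPM (-1.49, adjusted p = 1.47e-05). Gal3st3, a sulfotransferase, had a value of -3.38 with unequal replicates, at 19.9 and 69.6 CPM at day 9 and at 3.88 and 4.58 CPM at day 12. It was -4.03 without day 9 replicate 1 and lost its call without day 9 replicate 2 (-2.22), day 12 replicate 1 (-3.29) or day 12 replicate 2 (-3.54).

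The change from day 9 to day 12 was set beside that from day 0 to day 3, the interval in which Ctbp2 rose and which shares no library with it. Both were tested in the same fit, so each gene's estimated spread is common to both and the calls are not independent. From day 0 to day 3, 496 genes rose and 533 fell, which are 2.41% and 2.59% of those tested. Of the 385 genes that rose from day 9 to day 12, 223 had fallen from day 0 to day 3 and 0 had risen. These 223 are 57.9% of the 385 and 41.8% of the 533. Of the 406 that fell, 223 had risen earlier and 1 had fallen, and the 223 are 54.9% of the 406 and 45.0% of the 496. The single gene that fell in both intervals was Gal3st3, whose day 0 libraries differed widely (56.5 and 9.47 CPM). For the 223 that rose at the later step the median log2 fold change was 0.91 after an earlier -0.95, and for the 223 that fell it was -0.79 after an earlier 0.82. Over 12174 genes with a mean log2 CPM above 2, the changes of the 2 intervals had a Pearson correlation of -0.59 and a Spearman correlation of -0.57, a description across genes of 1 table, which are not independent.

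**Figure D3:**
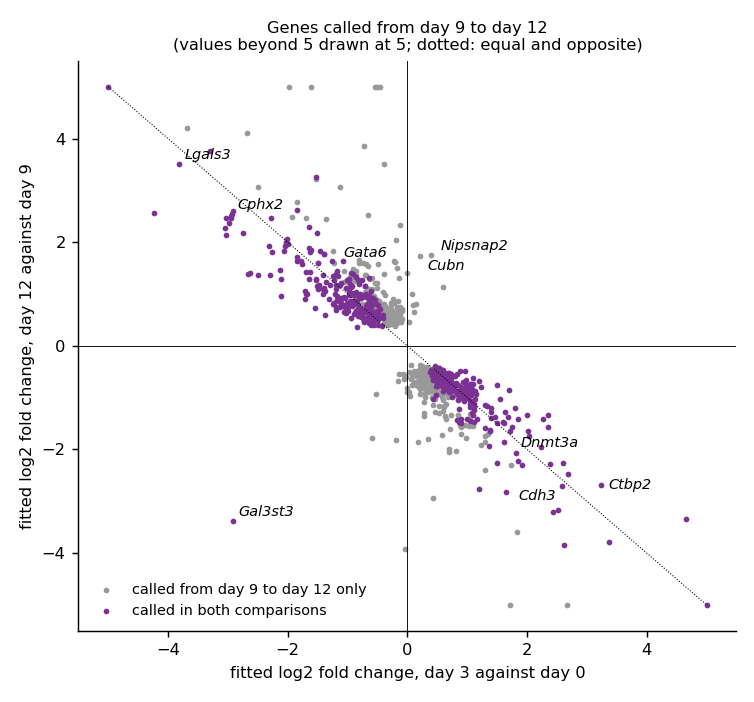
Fitted log2 fold change from day 9 to day 12 (vertical) against that from day 0 to day 3 (horizontal) for the 791 genes called from day 9 to day 12; purple points were called in both intervals and the dotted line marks equal and opposite changes. The purple points lie in the upper left and lower right except for Gal3st3. Nipsnap2, Gata6 and Cubn rose at the later step after earlier changes that were not called (0.40, -0.23 and 0.21).

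Whether the step at day 12 was the reverse of the earlier step was tested gene by gene as the sum of the 2 changes, which is 0 for an exact reversal. Only Nipsnap2 passed, at 0.00485% of the genes tested (sum 2.14, SE 0.18, adjusted p = 0.000322). At an unadjusted p under 0.05 there were 1060 genes, and DESeq2 called 12. With 2 libraries a day this test does not show that the other genes returned in full. The direct comparison of day 12 with day 0 shares the day 12 libraries and called 126 genes, 41 higher and 85 lower (0.611% of those tested). Values of day 12 against day 0 were 0.16 for Lgals3, -0.60 for Cphx2, 0.27 for Cdh3 and -0.08 for Dnmt3a. The sole call among these and Nipsnap2 was that of Nipsnap2 (1.99, adjusted p = 1.13e-05). Genes named below that were called there include Zscan4c (-2.33), Dnmt3l (-0.75) and Bst2 (-0.84), which were lower than at day 0. Gata6 (1.91), Tagln (1.46) and Plk2 (0.63) were called higher. Of 40 2-cell genes tested, 15 were lower and 0 higher, where 0.412% and 0.199% of all genes tested were. Members with few counts at day 12 could pass the filter on low counts only through other days. These 15 calls are therefore partly set by which members were tested.

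Dnmt3a and Dnmt3b, enzymes of DNA methylation, moved in opposite directions. Dnmt3a, a de novo DNA methyltransferase, fell 4.18-fold, from 446 and 456 CPM to 106 and 110 CPM (log2 fold change -2.06, SE 0.12, adjusted p = 3.61e-07). Dnmt3b, another de novo enzyme, rose from 99.2 and 96.1 CPM to 175 and 185 CPM (0.88, SE 0.11, adjusted p = 0.000756). The libraries of the 2 days did not overlap for either gene. For Dnmt3a, named for its p-value, that was a condition of the choice. Both day 12 libraries of Dnmt3b lay above both of day 9, as they did for 24.3% of all genes tested. The summed CPM of the 11 genes of the list was 2335 and 2315 at day 9 and 2185 and 2263 at day 12. Tet2, which oxidises methylated cytosine, had a value of 0.48 (adjusted p = 0.034), with calls lost without any 1 library (0.39 to 0.54). Dnmt3l, the cofactor of these enzymes, stood at 77.3 and 75.6 CPM and then at 99.0 and 93.0 CPM without a call (0.33, adjusted p = 0.17). It reached 136 and 167 CPM at day 18 (against day 12 0.66, adjusted p = 0.021). Of the 11 genes tested, 2 rose, 1 fell and 8 did not pass, with a median of 0.22 against -0.01 over all genes tested. Of all genes tested 1.87% rose and 1.97% fell. Dnmt1, Uhrf1, Usp7, Tet1 and Tdg, which cover maintenance and removal of methylation, had values between -0.05 and 0.26.

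Target genes of p53, the stress-induced transcription factor, were lower at day 12. Of 17 tested, 9 fell, 0 rose and 8 did not pass, with 16 of 17 values below 0 and a median log2 fold change of -0.55. Among all genes tested 1.97% were called lower. Trp53inp1, a stress protein, fell from 101 and 102 CPM to 64.3 and 62.7 CPM (-0.68, SE 0.10, adjusted p = 0.00157). Sesn2, a sensor of nutrient stress, fell from 180 and 178 CPM to 124 and 121 CPM (-0.55, adjusted p = 0.014). Mdm2, the ubiquitin ligase that degrades p53, fell from 91.3 and 84.9 CPM to 65.3 and 67.8 CPM (-0.40, adjusted p = 0.036). These changes were small. In all 3 both day 12 libraries lay below both day 9 libraries, as they did for 25.2% of all genes tested. The other calls were Zmat3 (-0.61), Plk2 (-0.73), Btg2 (-0.72), Ccng1 (-0.55), Phlda3 (-0.56) and the BH3 gene Pmaip1 (-0.95). Cdkn1a, the cell cycle inhibitor p21, had unequal replicates, at 147 and 234 CPM at day 9 and 162 and 86.3 CPM at day 12, and was not called. The count fell to 5 without day 9 replicate 1, 3 without day 9 replicate 2, 2 without day 12 replicate 1 and 1 without day 12 replicate 2. Summed over the list, levels were 1218 and 1310 CPM at day 9, 974 and 872 CPM at day 12, and 881 and 1031 CPM at day 0. From day 0 to day 3, 3 members had risen and 0 had fallen, where 2.41% and 2.59% of all genes tested did. The comparison of CtbpDKO with WT cells went mostly the other way. Of 17 members tested there, 8 were higher in CtbpDKO, 3 were lower and 6 did not pass, and the median was 0.29. Among all genes tested in that comparison 14.7% were higher and 11.4% lower. The cause of this difference was not tested. None of 14 proliferation genes was called from day 9 to day 12 by edgeR in the fit to all 10 libraries, 1 was by DESeq2 and 1 by edgeR with only the libraries of days 9 and 12, and their values lay between -0.32 and 0.56.

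**Figure D4:**
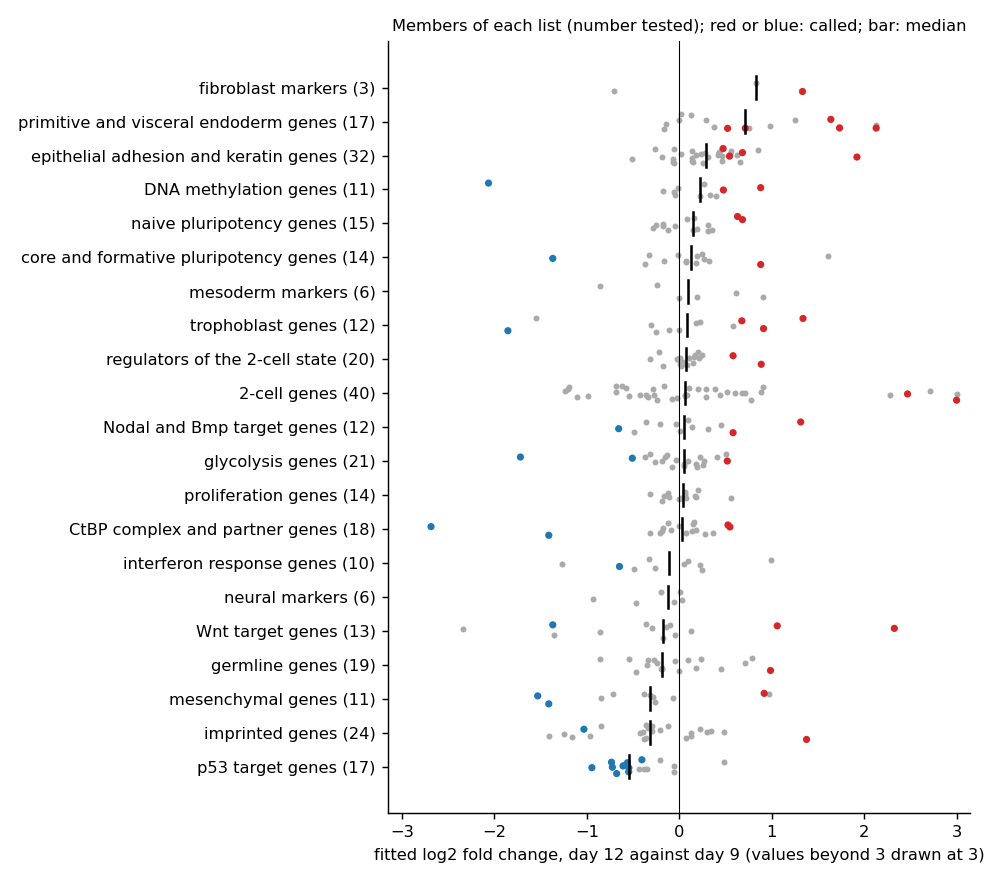
Fitted log2 fold change from day 9 to day 12 for the tested members of 21 gene lists, 1 point per gene, red where called higher, blue where called lower and grey otherwise; the black bar is the list's median and the number in brackets the genes tested. The p53 targets lie below 0 with 1 exception, the endoderm genes mostly above it, and the 2-cell genes spread on both sides.

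Genes of the 2-cell embryo were at their lowest on days 9 and 12 and did not rise together in the interval in which Ctbp2 fell. Zscan4c, a 2-cell marker that acts on telomeres, stood at 2.49 and 2.36 CPM at day 9 and at 2.28 and 2.47 CPM at day 12 (log2 fold change -0.02, SE 0.25, adjusted p = 0.98). Its sign changed without day 9 replicate 1 (0.014) and without day 12 replicate 1 (0.024). The libraries of the 2 days overlapped, and both were below days 0 and 3, where it was 13.5 and 10.5 and then 9.97 and 15.1 CPM. Zscan4c rose by day 18 to 9.17 and 9.68 CPM (against day 12 1.98, adjusted p = 0.00146). Duxf3, the copy of Dux in the table, had 17 and 3 counts at day 9 and 5 and 7 at day 12, too few to show a change (-0.54, adjusted p = 0.79, and 0.97 without day 9 replicate 1, -1.22 without day 9 replicate 2). Of 40 members tested, 2 rose, 0 fell and 38 did not pass from day 9 to day 12, where 1.87% and 1.97% of all genes tested rose and fell. The median of the members was 0.06, or 0 when genes at the counting limit of 3 counts per library are set to it. Setting steps side by side, 4 fell from day 0 to day 3 and 0 rose, where 2.59% and 2.41% of all genes tested did. From day 0 to day 9, 28 fell (3.73% of all genes tested fell there), and 12 rose from day 12 to day 18 with 0 falling. Members with few counts at days 9 and 12 could pass the filter on low counts only through other days. The 28 falls and 12 rises are therefore partly set by which members were tested. The step from day 12 to day 18 shares the day 12 libraries and called 169 genes, 132 higher and 37 lower (0.64% and 0.18% of those tested). Summed levels were 60.1 and 46.9 CPM at day 9, 51.4 and 57.3 CPM at day 12 and 148 and 214 CPM at day 18, below the 347 and 252 CPM of day 0. Zscan4, Usp17l, Tdpoz and Dux copies are near-identical, so counts of single members are uncertain.

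The 2 members called were Pramel7 and Pramef25, both of the Prame family of leucine-rich repeat proteins. Pramel7, which lowers DNA methylation through Uhrf1 when it is abundant, had 4 and 9 counts at day 9 and 26 and 42 at day 12. The log2 fold change was 2.47 (SE 0.62, adjusted p = 0.042), and both day 12 libraries were above both of day 9. It lost its call without day 9 replicate 1 (1.90), day 9 replicate 2 (3.29), day 12 replicate 1 (2.47) or day 12 replicate 2 (2.45), and with only the libraries of days 9 and 12 in the fit (2.47, adjusted p = 0.055). With those libraries alone 0 members of the list rose, and Pramef25 was not tested. Pramel7 had been 2.09 and 1.25 CPM at day 0, 0.293 and 0.102 CPM at day 3 and 1.48 in both libraries of day 12, and the value for day 3 against day 0 was -3.03 (adjusted p = 0.018). Pramef25 had 0 counts in both day 9 libraries and 6 and 8 counts at day 12, at least 2.59-fold higher against 3 counts in each library, and its call was lost without any 1 of the 4 libraries. Among 20 regulators of the 2-cell state, 2 rose, 0 fell and 18 did not pass, where 1.87% of all genes tested rose and 1.97% fell. Dppa2, which opens chromatin at the Dux locus, rose from 48.7 and 55.9 CPM to 80.5 and 76.0 CPM (0.58, adjusted p = 0.0048), and lost its call without day 9 replicate 1 (0.48), day 12 replicate 1 (0.54) or day 12 replicate 2 (0.61). Myc rose from 35.3 and 32.8 CPM to 62.4 and 63.6 CPM (0.89, adjusted p = 0.00585), with the call lost without day 9 replicate 2 (0.83) or day 12 replicate 2 (0.86). Both day 12 libraries lay above both of day 9 for Dppa2 and Myc, as they did for 24.3% of all genes tested.

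**Figure D5:**
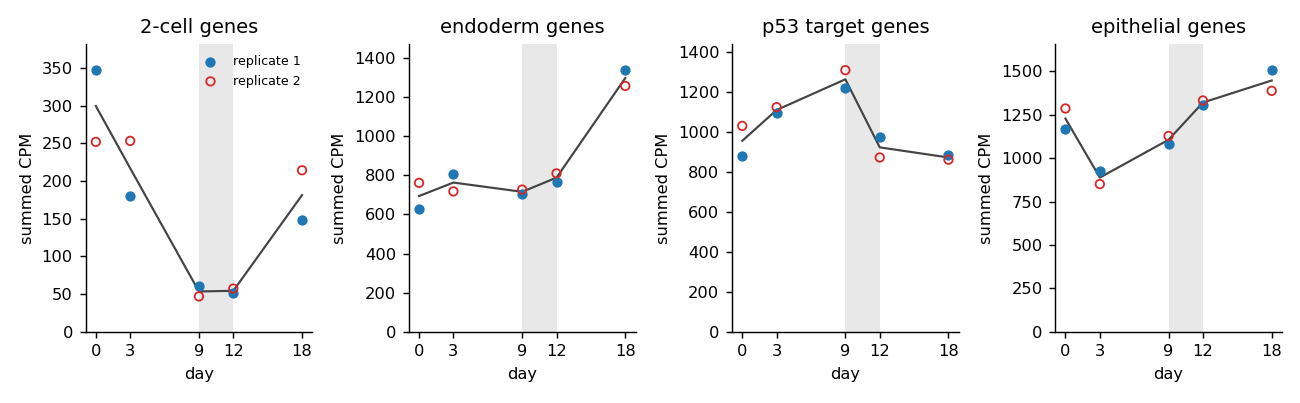
Summed CPM of the 2-cell, endoderm, p53 target and epithelial lists against the day, with 1 point per library and a line through the mean of the 2 libraries; the interval from day 9 to day 12 is shaded. The 2-cell sum was between 46.9 and 60.1 CPM in all 4 shaded libraries and higher at day 18, the endoderm sum rose mainly after day 12, and the p53 sum dropped inside the interval.

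Genes of primitive and visceral endoderm, the extraembryonic lineage that lines the blastocyst cavity and the yolk sac, had the highest number of upward calls of the 21 lists. Of 17 tested, 5 rose, 0 fell and 12 did not pass, with a median log2 fold change of 0.71 and 14 values above 0. Among all genes tested 1.87% were called higher. Gata6, the factor that starts the lineage, rose from 1.90 and 1.48 CPM to 4.90 and 5.68 CPM (1.64, SE 0.29, adjusted p = 0.0059). It was near its day 9 level at days 0 and 3 (1.12 to 1.52 CPM), so its day 12 level was also above day 0 (1.91, adjusted p = 0.00877). Sox7, another lineage factor, rose from 0.659 and 0.436 CPM to 2.17 and 2.68 CPM (2.13, adjusted p = 0.02). Cubn, the endocytic receptor cubilin of visceral endoderm, rose from 1.39 and 1.00 CPM to 4.79 and 3.39 CPM (1.73, adjusted p = 0.00528) and then to 34.3 and 31.1 CPM at day 18 (against day 12 3.02, adjusted p = 8.53e-05). The basement membrane genes Col4a1 and Sparc had values of 0.71 and 0.52. All 5 had both day 12 libraries above both of day 9, as had 24.3% of all genes tested. Leaving out 1 library left 2 calls without day 9 replicate 1, 1 without day 9 replicate 2, 2 without day 12 replicate 1 and 1 without day 12 replicate 2. Gata6 lost its call without replicate 2 of day 9 (1.48) or day 12 (1.51), Cubn without day 9 replicate 2 (1.53) or day 12 replicate 1 (1.48), and Col4a1 without day 9 replicate 1 (0.68) or day 12 replicate 2 (0.66). From day 12 to day 18, 8 members rose and 0 fell, where 0.64% and 0.18% of all genes tested did. Dab2 and Lama1, an endocytic adaptor and a laminin chain, had values of 0.38 and 0.02 from day 9 to day 12 (adjusted p = 0.40 and 0.96) and of 2.39 and 1.33 from day 12 to day 18. Afp and Ttr, products of mature visceral endoderm, had 0 counts in all 4 libraries of days 9 and 12. The list summed to 704 and 727 CPM at day 9, 766 and 809 CPM at day 12 and 1337 and 1256 CPM at day 18. In bulk libraries, more cells of a type and more RNA per cell cannot be told apart.

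Most epithelial adhesion and keratin genes were not called. Of 32 tested, 4 rose (1.87% of all genes tested did), 0 fell and 28 did not pass, 25 values were above 0 and the median was 0.29. In 23 of the 32 both day 12 libraries lay above both day 9 libraries, which held for 24.3% of all genes tested. From day 0 to day 3, 13 had fallen and 0 had risen, where 2.59% and 2.41% of all genes tested did. Misp, an actin-bundling protein of the spindle and microvilli, rose from 1.46 and 1.31 CPM to 3.82 and 6.60 CPM (1.92, adjusted p = 0.00189). The keratin Krt8 rose from 73.3 and 80.5 CPM to 130 and 117 CPM (0.68, adjusted p = 0.00322), and lost its call without day 9 replicate 1 (0.61) or day 12 replicate 1 (0.60). The libraries did not overlap for either gene, and the junction proteins Pkp3 and Jup had values of 0.54 and 0.47. The keratin partner Krt18, with 26.1 and 25.5 CPM and then 29.9 and 26.8 CPM, was not called (0.14, adjusted p = 0.64). The list had 1 to 2 calls when any 1 library was left out: 1 without replicate 1 of day 9 or of day 12, and 2 without replicate 2 of day 9 or of day 12. Cdh3 is not on this list, and it moved the other way. Of 11 mesenchymal genes, 1 rose, 2 fell and 8 did not pass, where 1.87% of all genes tested rose and 1.97% fell. Vim, the intermediate filament vimentin, rose from 130 and 133 CPM to 256 and 240 CPM (0.92, adjusted p = 0.00229). Tagln, an actin-binding protein of smooth muscle, fell from 18.8 and 17.8 CPM to 6.90 and 5.78 CPM (-1.53, adjusted p = 0.00306), and without day 12 replicate 2 it was not called (-1.42). Neither gene's libraries overlapped between the days, as held for 24.3% (higher) and 25.2% (lower) of all genes tested.

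Most partners of CtBP were not called. Among 18 tested genes of the complex, Ctbp2 included, 2 rose, 2 fell and 14 did not pass. Of all genes tested 1.87% rose and 1.97% fell. Zeb2, a repressor that recruits CtBP, fell from 5.85 and 8.38 CPM to 2.85 and 2.50 CPM (-1.41, SE 0.25, adjusted p = 0.00598). Zeb2 had risen from 1.59 and 1.70 CPM at day 0 to 8.51 and 7.44 CPM at day 3, so it was high in the libraries in which Ctbp2 was high. The call was lost without day 9 replicate 2 (-1.14) or day 12 replicate 2 (-1.33). Its relative Zeb1 was not called (-0.32). The corepressor subunit Rcor2 (0.55, adjusted p = 0.015) and the zinc finger factor Rreb1 (0.53, adjusted p = 0.042) rose, each with calls lost without any 1 of the 4 libraries (0.49 to 0.60 and 0.47 to 0.58). The enzymes brought by CtBP, namely Kdm1a, Hdac1, Hdac2, Ehmt1 and Ehmt2, had values between -0.17 and 0.37 and were not called.

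Few pluripotency genes were called. Of 15 naive pluripotency genes, 2 rose, 0 fell and 13 did not pass, where 1.87% of all genes tested rose and 1.97% fell. Fgf4, the growth factor that pushes stem cells out of the naive state, rose from 56.6 and 57.4 CPM to 91.9 and 91.1 CPM (0.68, adjusted p = 0.00225), and Tcl1, an Akt coactivator, from 22.9 and 24.0 CPM to 38.2 and 34.6 CPM (0.63, adjusted p = 0.0056). Tcl1 lost its call without day 9 replicate 1 (0.59) or day 12 replicate 1 (0.56). Of 14 core and formative genes, Dnmt3b rose, Lef1 fell and 12 did not pass. Nanog had a value of 0.07 (adjusted p = 0.84, and -0.029 without day 9 replicate 1) and Pou5f1 of 0.20 (adjusted p = 0.35). From day 0 to day 3, 7 of the 15 naive genes had fallen and 0 had risen, where 2.59% and 2.41% of all genes tested did.

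Targets of signalling pathways changed singly and in both directions. Among 13 Wnt target genes, 2 rose, 1 fell and 10 did not pass, where 1.87% of all genes tested rose and 1.97% fell. Ccnd1, the G1 cyclin D1, rose from 21.4 and 21.5 CPM to 41.9 and 47.4 CPM (1.06, adjusted p = 0.00251), while Lef1, a Wnt effector, fell from 12.8 and 11.2 CPM to 4.11 and 5.11 CPM (-1.37, adjusted p = 0.00234). The days did not overlap in either gene, as held for 24.3% (higher) and 25.2% (lower) of all genes tested. Dkk1, a secreted Wnt inhibitor, had only 6 and 4 counts at day 9 and 17 and 30 at day 12, a value of 2.33, and calls lost without any 1 library (2.18 to 2.50) and with only the libraries of days 9 and 12 in the fit (2.33, adjusted p = 0.066). Among 12 Nodal and Bmp target genes, 2 rose, 1 fell and 9 did not pass. Id1, a Bmp-induced inhibitor of differentiation factors, rose from 30.2 and 25.8 CPM to 71.0 and 68.3 CPM (1.31, SE 0.11, adjusted p = 3.02e-05). Smad7, which inhibits these receptors, fell from 201 and 194 CPM to 121 and 129 CPM (-0.66, adjusted p = 0.00255) and lost its call without day 12 replicate 1 (-0.61). Lefty2, a Nodal inhibitor, had a value of 0.58 with calls lost without any 1 library (0.49 to 0.65).

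The counts of the lists that follow stand beside 1.87% of all genes tested that rose and 1.97% that fell. Of 12 trophoblast genes, 3 rose, 1 fell and 8 did not pass. Eomes, a T-box factor of trophoblast stem cells, rose from 11.6 and 10.1 CPM to 19.3 and 21.4 CPM (0.91, adjusted p = 0.00222). Tead4 (0.68) and Plet1 (1.34) rose and Tfap2a fell (-1.85). Each of these last 3 lost its call without day 9 replicate 1, day 12 replicate 1 or day 12 replicate 2, with values of 0.63, 0.63 and 0.71 for Tead4, 1.09, 1.22 and 1.43 for Plet1 and -1.55, -2.0 and -1.72 for Tfap2a. Of 24 imprinted genes, 1 rose, 1 fell and 22 did not pass. Peg3, a paternally expressed zinc finger gene, fell from 98.3 and 92.3 CPM to 47.7 and 45.5 CPM (-1.03, SE 0.10, adjusted p = 5.53e-05), beside 47.0 and 44.9 CPM at day 0. Phlda2, a maternally expressed growth restrictor, rose from 2.67 and 3.27 CPM to 7.87 and 7.55 CPM (1.38), not called without day 9 replicate 1 (1.23). Of 19 germline genes only Rpl10l, a testis copy of a ribosomal protein gene, was called, rising from 10.5 and 10.9 CPM to 22.2 and 20.2 CPM (0.98, adjusted p = 0.00241). Of 21 glycolysis genes, Pfkp (0.52) rose, Pfkm (-0.51) and Eno2 (-1.72) fell and 18 did not pass. The last 3 calls were lost in most leave-outs, with Pfkp kept only without day 9 replicate 1, Eno2 only without day 9 replicate 2 and Pfkm in none. Their values ran from 0.35 to 0.71, from -2.07 to -1.24 and from -0.64 to -0.40. Of 10 interferon response genes, Bst2 fell (-0.65, adjusted p = 0.025), with its call kept among the leave-outs only without day 12 replicate 1 (-0.85) and lost with only the libraries of days 9 and 12 in the fit (-0.65, adjusted p = 0.051). Of 3 fibroblast markers tested, Thy1, a surface glycoprotein that other cells carry too, rose from 5.01 and 6.85 CPM to 16.3 and 13.5 CPM (1.33, adjusted p = 0.00148), and the summed fibroblast markers given above moved with it; their part in other results was not tested. None of 6 neural and 6 mesoderm markers was called by edgeR.

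Set beside the comparison of CtbpDKO with WT cells, which called 3115 genes higher and 2407 lower (14.7% and 11.4% of 21193 tested), the genes that rose and those that fell gave these counts. Of 384 genes that rose and were tested in both tables, 266 were higher in CtbpDKO (69.3%, and 8.74% of the other list) and 28 were lower. Of 403 that fell, 148 were lower in CtbpDKO (36.7%, and 6.27% of the other list) and 66 were higher (16.4%). Lgals3 (1.32) and Cphx2 (4.90) were higher in CtbpDKO, and Shf (-1.26) and Ldhb (-1.60) were lower. Some named genes moved otherwise. Cdh3, Dnmt3a and Mmp9 fell from day 9 to day 12 and yet were higher in CtbpDKO than in WT cells, by 1.09, 1.07 and 3.47 on the log2 scale (adjusted p = 0.000194, 7.4e-07 and 0.000223). Nipsnap2 and Ccnd1 rose and yet were lower in CtbpDKO (-1.55 and -1.23). Zscan4c did not change and yet was far higher in CtbpDKO (5.52, adjusted p = 3.4e-05). Over 12168 genes the changes of the 2 comparisons had a Pearson correlation of 0.31 and a Spearman correlation of 0.32, as a description across genes.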

How the data were processed

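RNA from the time course was counted per gene symbol by the authors, who deposited raw counts with 1 column per library and no normalization. Trim Galore, HISAT2, featureCounts and the build mm10 are named, without versions, in the submitters' processing notes. The annotation and strand setting are not given in the sources used here, so counts of overlapping, antisense and near-identical genes are uncertain. Per the labels' protocols, the kits were PureLink for total RNA and Collibri, a stranded kit, for the libraries. All columns matched labelled samples. The 6 bisulfite samples of the series were not analysed here.

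From the deposited counts of 55276 genes in 10 libraries, edgeR 4.0.16 in R 4.3.3 kept 20612 by filterByExpr. TMM scaling gave factors of 0.915 to 1.10. The quasi-likelihood test was fitted to all 10 libraries with the group as the only term, p-values were adjusted by Benjamini-Hochberg, and log2 fold changes used a prior count of 0.125. Standard errors (SE) were derived from the F statistic. The genotype table (12 libraries, 21193 genes tested) was fitted alike and separately. Replicates differed by more than counting noise (chi-square per gene 12.9 to 24.0). Structural RNA took 15.8% to 24.1% of counts. Limits of 3 counts cover counting error only. Alternatives were DESeq2 1.42.0, other scalings, no filter, no structural RNA, a fold minimum, another prior count, a replicate block, only the compared groups and leaving out each library.

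Named were Ctbp1, Ctbp2, Duxf3, Zscan4c, Pramel7, Dppa2, Dnmt3l, Nanog and Pou5f1, the 10 largest changes and the 5 smallest p-values per direction among called genes without overlap and with a mean of at least 50 counts in the higher group (no predicted genes), and up to 3 called members per direction of each of 21 lists. Other list members were chosen after their values were seen. The comparison, the lists and the rule were chosen with earlier results of these data known. Positions and promoter windows come from RefSeq tables of GRCm38.p6, which matched 17879 of the tested genes. The procedure was tested on simulated counts.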

Additional observations from a re-analysis of the deposited data

Results flagged for a closer look

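Nipsnap2 changed differently in the 2 intervals of 3 days that were compared. The sum of its log2 changes from day 9 to day 12 and from day 0 to day 3 was 2.14 (SE 0.18, adjusted p = 0.000322 by edgeR), where equal and opposite changes give 0. It rose in both libraries of day 12, to 85.6 and 80.6 CPM, and its change from day 0 to day 3 was 0.40 (adjusted p = 0.10). It was the only gene of 20612 called by that test.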

How the results depend on the processing

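From day 9 to day 12 the count of 791 calls was 1009 with DESeq2, 791 and 792 with other scaling factors, 785 without structural RNA (409 higher and 376 lower) and 918 with only the 2 groups compared. It was 1361 without a filter on low counts (628 higher, 733 lower) and 273 with a minimum log2 fold change of 1 (153 and 120). Leaving out 1 library gave 210 to 303 calls, with 123 to 152 higher and 87 to 154 lower. With the replicate number as a block it was 623, of which 617 were among the 791. Among named genes the block ended the calls of Pramel7, Pramef25, Rreb1, Tet2, Pfkm and Dkk1 (adjusted p from 0.052 for Pfkm to 0.067 for Pramef25) and no other, which left 0 of the 2 called 2-cell genes and 1 of the 2 DNA methylation genes called higher. The deviations of same-numbered libraries of days 9 and 12 had a correlation of -0.04 over 9967 genes, and the labels do not say that the numbers pair the libraries.

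Day 9 against day 0 gave 625 calls with the fold minimum and 652 to 969 in leave-outs. Day 3 against day 0 gave 1634 without a filter, 353 with the fold minimum and 340 to 607 in leave-outs. Day 12 against day 0 gave 260 with DESeq2, 564 without a filter and 43 to 96 in leave-outs. Day 18 against day 12 gave 319 with DESeq2, 652 without a filter, 89 with the fold minimum, 112 with the block, 60 with only the groups compared and 38 to 213 in leave-outs. The sum of the 2 intervals gave 12 with DESeq2, 135 without a filter and 1 to 7 in leave-outs. CtbpDKO against WT gave 2221 with the fold minimum and 3543 to 4048 in leave-outs. Leave-outs use fewer libraries, the fold minimum adds a condition, and otherwise the cause was not tested. Of 66 called named genes, 35 kept their call in all 12 alternatives. Signs changed only for uncalled genes: leave-outs ran from -1.22 to 0.97 for Duxf3, from -0.10 to 0.024 for Zscan4c and from -0.029 to 0.17 for Nanog, with the sign changed without day 9 replicate 1 in all 3 (0.014 for Zscan4c) and also without day 12 replicate 1 for Zscan4c. Genes with few counts, such as Duxf3 and Dkk1, are limited by depth.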
